A study of Mus musculus with 2 samples.

Results

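The E2F transcription factors and their DP partners were read at 21 of the 45037 probe sets of the array, which carry the symbols of 10 genes, E2f1 to E2f8, Tfdp1 and Tfdp2. A probe set was taken when its only gene symbol in the array annotation was one of these names, and every one of them is given here. No probe set with several symbols named a member. The family was singled out because a probe set of E2f5 stood out on these same arrays, so the values of E2f5 below are a description of what was already seen and not a test.

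Inserts of the GeneNet mouse 40K lentiviral siRNA library, which makes cells express short interfering RNAs (siRNAs) that silence single genes, were amplified by PCR from ANSO4E cells, a mouse neural stem cell line, and hybridized to Affymetrix mouse genome arrays. The reference control (control cells below) was library-infected cells left untreated, and the survivors were cells of the same infected line that lived through 500 µM MNNG given for 15 min and then through a repeat of that treatment. Survivors were regrown between the treatments and again before harvest, so the comparison takes in that outgrowth along with MNNG. MNNG is an alkylating agent that damages DNA. The line was made from a transgenic mouse of mixed background (C57BL/6JxSJL/JF1 oocytes and BDF1 sperm), whose transgene is not given in the sources used here, and both groups carry it together with the library. Each group had 1 array, so no difference below has a replicate error or a p-value, and a difference is called large only when it exceeded 1 on the log2 scale, a factor that has no replicate check.

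E2F proteins bind the promoters of genes needed for DNA synthesis and cell division. Most of them bind DNA as a pair with a DP protein, and the pocket proteins Rb1, Rbl1 and Rbl2 hold them inactive until cyclin-dependent kinases phosphorylate the pocket proteins at the entry to S phase. E2f1, E2f2 and E2f3 are grouped as activators, E2f4 and E2f5 as repressors that work with pocket proteins in resting and differentiating cells, E2f6 as a repressor that works with Polycomb proteins instead, and E2f7 and E2f8 as atypical repressors that bind DNA without DP. In neural precursors these factors are known for roles in the choice between division, differentiation and death. E2f5 is also known for its role in the choroid plexus, which makes cerebrospinal fluid.

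A signal here stands for the abundance of library inserts that match a probe set, not for the messenger RNA of the gene. A higher signal in the survivors is read as inserts against the gene taking a larger part of what was recovered after MNNG. The sequences of the inserts and of the array probes were not used here, so which siRNA a probe set read is not known, and signals of different probe sets are not set against each other as amounts. Because inserts and not transcripts are read, the arrays cannot check the labeled cell type by its markers. The 6 neural stem cell markers examined, Nes, Sox2, Pax6, Msi1, Vim and Fabp7, had log2 signals of 0.43 to 1.15 in the reference control and 0.03 to 1.59 in the survivors. Among markers of other neural cell types, Mbp and Csf1r had log2 signals above 5 in the reference control, at 7.34 and 6.35, and 0.74 and 0.61 in the survivors. The others measured went both ways. Tubb3, Rbfox3, S100b, Aif1 and Cx3cr1 were higher in the survivors, and Map2, Dcx, Gfap, Aqp4 and Olig2 were lower.

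Signals were low for most of the array. Over all 45037 probe sets, the 25th, 50th and 75th percentiles of the log2 signal were 0.43, 0.69 and 1.02 in control cells, and 0.51, 0.74 and 1.07 in survivors. The survivor value was the higher one for 44.2% of all probe sets and the lower one for 36.4%, and for 19.4% the arrays gave the same value. Differences are survivors minus reference control. The scaled median absolute deviation of all differences, a measure of their usual size, was 0.45. The 18 hybridization controls, foreign sequences spiked in at set amounts, all read higher in survivors. Their differences ran from 0.08 to 3.86 with a median of 2.77 on the log2 scale. Taking that median as the reference lowers each difference below by 2.77, and a single control would give another shift.

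One probe set of the family was bright on both arrays, and all others were dim, at log2 signals of 1.70 or less. In rank the others ranged widely. In the survivors they lay from above 6.67% of all probe sets (E2f7) to above 94.8% (E2f2 1436434_at). The E2f5 probe set 1417444_at read 6.56 in control cells and 10.58 in survivors on the log2 scale, which is 4.02 higher. On the linear scale these were signals of 94.5 and 1535, a 16.2-fold higher signal in the survivors. The remaining 20 probe sets had log2 signals from 0.10 to 1.51 in the reference control and from 0.23 to 1.70 in the survivors. Their differences ran from -0.91 to 0.92 with a median of 0.00. Of the 20, 14 were no larger in size than 0.45, a share like that of the whole array, where 29847 of 45037 were. Among these 20, survivors had the higher value 9 times, control cells 8 times, and the arrays tied 3 times. Over all 21 probe sets, 1 was higher by over 1 and 0 were lower by over 1, beside 3.75% and 3.93% of all probe sets. Centered on the hybridization controls, E2f5 1417444_at was still higher, by 1.25, and the other 20 were lower by over 1. That scaling takes the same 2.77 from every probe set of the array, so the 20 are no trait of the family. The matching share of all probe sets was not counted.

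**Figure D1:**
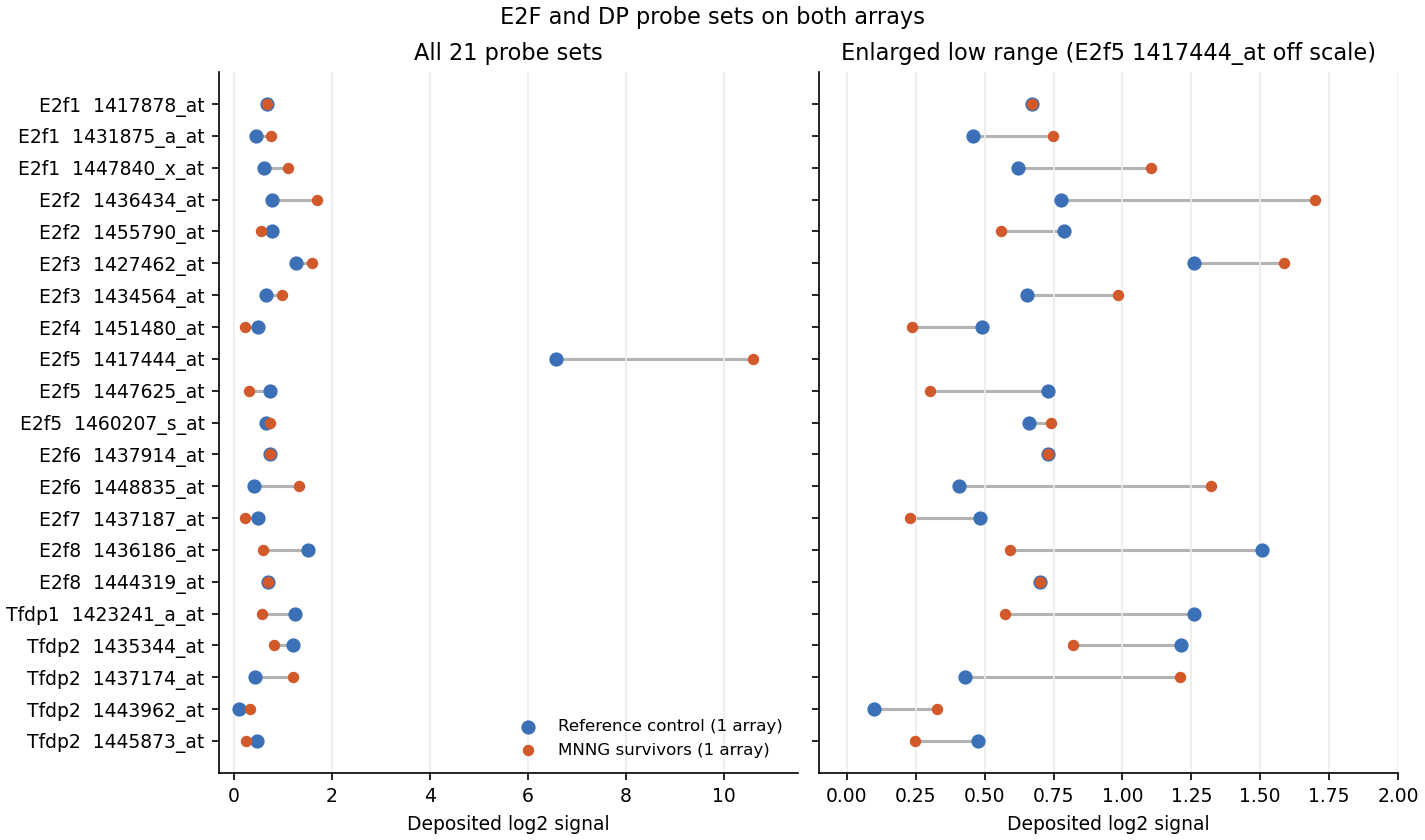
Deposited log2 signal (horizontal axes) of each of the 21 E2F and DP probe sets (rows) in the reference control (blue) and the MNNG survivors (orange), 1 array each, with the low range enlarged on the right. E2f5 1417444_at moves from 6.56 to 10.58, while the other 20 reach 1.70 at most.

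The 3 probe sets of E2f5 did not move together. Beside the bright 1417444_at, the probe set 1460207_s_at read 0.66 in control cells and 0.74 in survivors, 0.08 higher. The annotation ties both probe sets to the same GenBank sequence, so probes for the same sequence gave the large difference in the first and none of it in the second. The suffix of 1460207_s_at marks probes that can match several transcripts. The third E2f5 probe set, 1447625_at, had 0.73 and 0.30, a difference of -0.43. The median of the 3 differences was 0.08, and a gene value taken there in place of the brightest probe set would put E2f5 among its relatives.

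A bright probe set whose neighbor on the same gene stayed dark was common on these arrays. In the survivors, 26 GenBank sequences had a probe set with a log2 signal above 5 and at least 1 other probe set, and in 1 of the 26 another probe set was also above 5. Among genes, 24 had a probe set that was higher by over 2.5 and reached a log2 signal above 5 in the survivors, where 0.155% of all probe sets were higher by over 2.5. Of these 24 genes, 23 had several probe sets, in 5 of them another probe set was higher by over 1, and in 16 of them another probe set was lower. E2f5 belongs to the 16.

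Most probe sets as bright as E2f5 1417444_at in control cells were dim in survivors. Counting E2f5, 85 probe sets had a reference control log2 signal within 0.5 of its own, from 6.07 to 7.05. Of the 85, 75 (88.2%) were lower in the survivors by over 2.5, against 1.01% of all probe sets. Most of the array was too dim in control cells to fall that far, so the 1.01% is not a like base. Of 201 genes above 5 in the reference control, each at its probe set of highest mean, 181 were lower by over 2.5. A fall was thus usual for bright signals and not particular to this window. The median of the other 84 was 0.98 in the survivors, a median difference of -5.50. Higher values in the survivors were found for 5 of the 85, and 2 of them were higher by over 1. These were E2f5 and Tspyl3, which belongs to the TSPY-like proteins. After quantile normalization 9 of the 85 were higher by over 1 and 71 were lower by over 2.5, and after loess 9 and 68 were. Centered on the hybridization controls, 2 were higher by over 1 and 80 were lower by over 2.5.

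**Figure D2:**
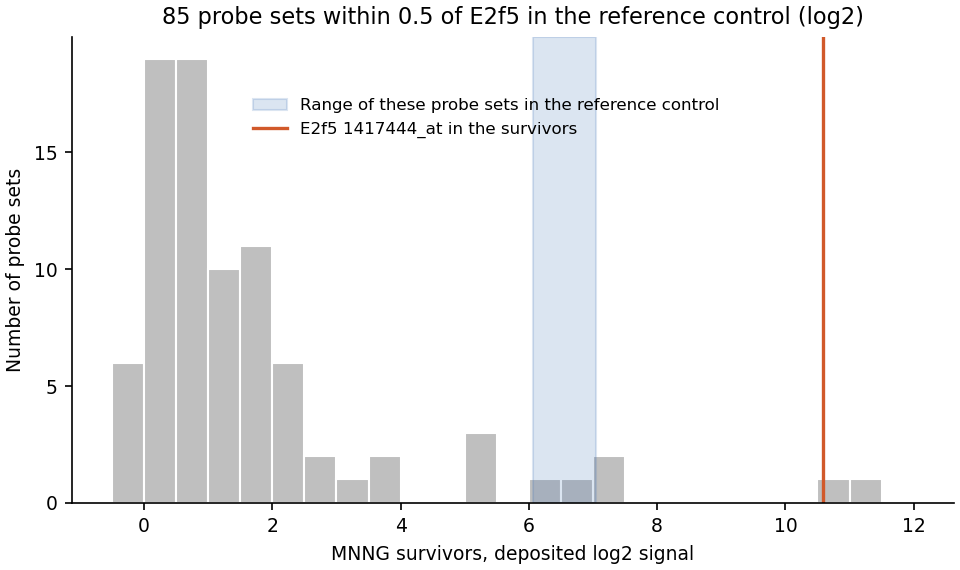
Number of probe sets (vertical axis) by deposited log2 signal in the MNNG survivors (horizontal axis) for the 85 probe sets whose reference control signal lay within 0.5 of E2f5 1417444_at. The blue band marks where all 85 lay in the reference control (6.07 to 7.05). Most lie near 1 in the survivors, and the orange line marks E2f5 at 10.58.

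On the whole array, 4 probe sets had a higher signal than E2f5 1417444_at in the survivors and 126 had a higher one in the reference control, and its difference was the 17th largest. As deposited, it was the only member past the study's thresholds, a signal above 1000 in the survivors and a log2 ratio above 2.5. They were passed by 4 probe sets (0.00888% of all), fewer than the genes that the paper selected with them. E2f5 is among the genes the paper selected, there with higher signals in both groups and a smaller ratio than deposited. Why the paper's values differ from the deposited ones was not tested. After quantile normalization of the deposited values the survivor signal of E2f5 1417444_at was 918 and no member passed. With the Affymetrix controls left out of that step it was 1120 and E2f5 passed. Centered on the hybridization controls, no member passed. Log2 signals above 5 were found at 301 probe sets in control cells and at 58 in survivors. E2f5 was among the 23 that exceeded it on both arrays, 12 of which were higher in the survivors by over 1.

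The 5 named probe sets nearest to E2f5 in both signals, by Euclidean distance over its 2 log2 values, were those of Tspyl3, Morf4l2, Ptpn2, Rnf26 and Fam104a. Tspyl3 lay at a distance of 0.61, with 6.45 in control cells and 11.18 in survivors. Morf4l2, a relative of the chromatin protein Morf4l1, had 5.70 and 9.73, at a distance of 1.21, and its difference of 4.04 was close to that of E2f5. Ptpn2, a tyrosine phosphatase, had 8.04 and 10.79, at a distance of 1.49. Rnf26, a RING finger protein, had 7.52 and 9.42, at a distance of 1.51, and Fam104a had 4.87 and 9.96, at a distance of 1.80. Like E2f5, each of these genes also had a probe set with a difference of 0 or below, down to -0.92 for Ptpn2 and -0.69 for Morf4l2. With 2 arrays this likeness rests on 2 values for each probe set.

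**Figure D3:**
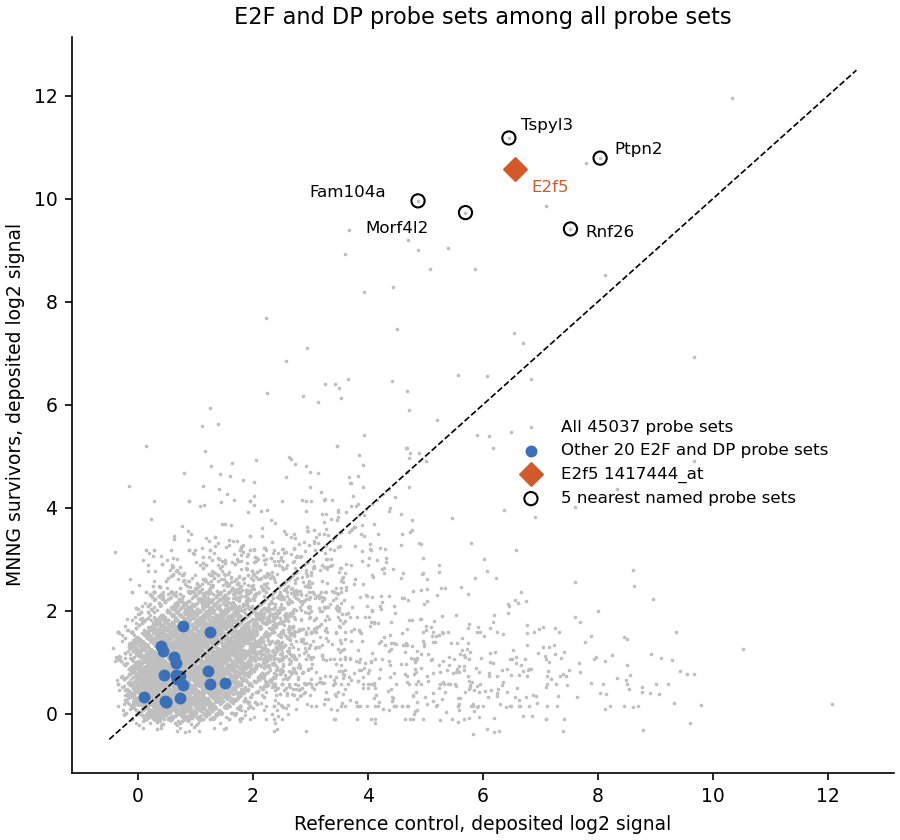
Deposited log2 signal in the MNNG survivors (vertical axis) against the reference control (horizontal axis) for all 45037 probe sets (grey), E2f5 1417444_at (orange diamond), the other 20 E2F and DP probe sets (blue) and the 5 named probe sets nearest to E2f5 (open circles). Points on the dashed line are equal on both arrays; the 20 lie in the dense low cloud, and most probe sets that are bright in the reference control lie near the bottom.

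E2f4, the closest relative of E2f5 and the E2F that resting cells hold in the largest amount, had 1 probe set. Its log2 signal was 0.49 in control cells and 0.23 in survivors, a difference of -0.25. The sign is opposite to that of E2f5 1417444_at and the same as that of E2f5 1447625_at. It compares values near the floor of the array. With a floor at the 25th percentile of all signals, the E2f4 difference was -0.01. As deposited the difference lay within the usual size of 0.45, and no gain of the kind seen for E2f5 was detectable.

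The activators had 7 probe sets, with 5 higher in survivors, 1 lower and 1 tied, and a median difference of 0.33. E2f1, which can drive cells into S phase and also into apoptosis, had 3 probe sets with log2 signals of 0.67 and 0.67 at 1417878_at, 0.46 and 0.75 at 1431875_a_at, and 0.62 and 1.11 at 1447840_x_at. None was lower in the survivors, and the largest of the 3 differences was 0.48. E2f2 had the second largest difference of the family, with 0.78 in control cells and 1.70 in survivors at 1436434_at, a difference of 0.92. Its other probe set, 1455790_at, went the other way, with 0.79 and 0.56. E2f3 had 1.26 and 1.59 at 1427462_at and 0.66 and 0.98 at 1434564_at. These were equal differences of 0.33, which made E2f3 the only gene of the family with several probe sets that all lay on the higher side.

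The other repressors were read at 5 probe sets. E2f6 had 0.41 in control cells and 1.32 in survivors at 1448835_at, a difference of 0.91, and the same value of 0.73 on both arrays at 1437914_at. E2f7 had 0.48 and 0.23 at its probe set, a difference of -0.25, which was -0.01 with a floor at the 25th percentile. E2f8, which acts with E2f7 to silence E2f1, had 1.51 and 0.59 at 1436186_at and 0.70 on both arrays at 1444319_at. The difference of -0.91 at 1436186_at was the lowest of the family. None of the 3 probe sets of the atypical E2f7 and E2f8 was higher in the survivors, and 1 of them was equal.

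The DP partners had 5 probe sets, with 2 higher and 3 lower in survivors and a median difference of -0.23. Tfdp1, which encodes DP1, the main partner in most cells, had 1.26 in control cells and 0.57 in survivors, a difference of -0.68. Tfdp2, which encodes its paralog, had 4 probe sets with log2 signals of 1.21 and 0.82 at 1435344_at, 0.43 and 1.21 at 1437174_at, 0.10 and 0.33 at 1443962_at, and 0.48 and 0.25 at 1445873_at. The differences of Tfdp2 thus ran from -0.39 to 0.78 and had both signs. Of the 7 family genes with several probe sets, 3 had differences of both signs, E2f2, E2f5 and Tfdp2. This share of 42.9% stands beside 47.7% of the 9010 genes with several probe sets on the whole array.

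Most of the low values took a limited set of steps. Compared to 4 decimals, the 45037 differences took 856 sizes, and 97.0% of them recurred in at least 15 other probe sets. Each of the 20 low differences of the family was shared by 30 or more probe sets, and the 20 took 13 sizes. The difference of 0.92 at E2f2 1436434_at was shared by 573 probe sets, that of -0.25 at E2f4 and E2f7 by 1599 and that of 0.33 at the E2f3 probe sets by 522. The 0.91 of E2f6 and the -0.91 of E2f8 were the same step with opposite signs. The difference at E2f5 1417444_at was found in no other probe set. Only 70 probe sets (0.155%) were higher by over 2.5, and how often bright probe sets share a difference was not counted. How the steps arose was not tested.

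Inserts against the proteins that hold and release E2Fs mostly lay near the level of the whole array. From here on a gene stands for whichever of its probe sets had the highest mean over both arrays. On that basis 4.78% of all 18193 genes were higher by over 1 and 5.45% were lower by over 1. The 10 family genes then split into 5 higher and 5 lower, and their median was 0.04. Of the 3 pocket proteins 1 was higher and 2 were lower, and none differed by over 1. Rbl2, which encodes p130, the usual partner of E2f4 and E2f5 in resting cells, had 1.61 in control cells and 2.14 in survivors, but its 2 probe sets ran from -0.83 to 0.53. Rbl1, which encodes p107, had 1.21 and 0.95.

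Of 10 cyclins and cyclin-dependent kinases of G1 and S phase, 4 lay above 0, 3 below it and 3 at it, for a median of 0.00, with 2 higher and 1 lower by over 1. Cdk4, the kinase that starts the phosphorylation of pocket proteins, had 4.72 in control cells and 1.82 in survivors, a difference of -2.90, and its 3 probe sets were all lower, by 0.52 at least. Ccne1, cyclin E1, had 1.79 and 3.09, and Ccna1, the cyclin A of germ cells, had 0.41 and 1.72. Both differed by 1.30, but the other probe set of Ccne1 had a difference of -0.14. Of 7 inhibitors of these kinases, 4 were higher, 1 was lower and none differed by over 1. Cdkn2a, whose products hold back Cdk4 and Mdm2, had 0.21 and 1.13, and Cdkn2b had 0.46 and 0.75.

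Partner complexes of the repressors gave values of both signs. Of 7 genes of the MuvB core, B-Myb and FoxM1, which form complexes with E2f4 or E2f5 and pocket proteins or follow them in the cell cycle, 3 lay above 0 and 3 below it, and the median was 0.00. Foxm1, a factor of mitotic genes, had 4.16 in control cells and 2.98 in survivors, and its 4 probe sets ran from -1.37 to 0.43, while Lin9 had 1.39 and 2.07. Of 13 measured genes of the E2f6 Polycomb complex, 10 lay above 0, 2 below it and 1 at it, for a median of 0.29 beside 0.00 over all genes, and 1 was higher by over 1. The gene higher by over 1 was Mga, the scaffold that binds Max, with 0.65 and 2.15, at 1 of 5 probe sets that ran from -0.14 to 1.51. With each gene at its probe set of lowest mean, the median of the complex was 0.00. Cbx3, a heterochromatin protein, had 0.69 and 1.47. The list includes Pcgf6, which the study picked from these arrays and which therefore adds no independent evidence to the count.

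Among 19 measured target genes of DNA replication, 10 lay below 0, 6 above it and 3 at it, for a median of -0.19 (0.00 at the probe set of lowest mean), and 4 were lower by over 1 while 0 were higher by as much. Rrm2, a subunit of ribonucleotide reductase, had 5.96 in control cells and 1.07 in survivors, and its 3 probe sets ran from -4.89 to 0.52. Cdt1, which licenses origins, had 5.39 and 0.57. Mcm7 and Mcm6, subunits of the replicative helicase, had 5.54 and 0.81, and 3.95 and 1.89. The differences of Mcm7 were negative at all 4 probe sets, with the smallest at -0.19, and those of Mcm6 and Cdt1 ran up to 0.23 and 0.91. Rrm2, Cdt1 and Mcm7 were above 5 in the reference control, as were 201 of all genes, of which 181 were lower by over 2.5 (1.73% of all genes were). The part of this general loss of bright signals in the differences of the replication genes was not tested.

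Targets of E2f1 that promote death were measured for 6 genes, with 3 above 0, 2 below it, a median of 0.25 (0.00 at the probe set of lowest mean) and none past 1. Bbc3, the BH3-only protein Puma, had 0.94 in control cells and 1.86 in survivors, and Trp73, a relative of p53, had 0.63 and 1.32, with -0.14 at its other probe set. Of 3 ubiquitin ligase subunits that act on E2Fs, Skp2 had 3.01 and 1.56, with 6 probe sets from -1.44 to 0.25, and Ccnf had 1.26 and 1.59. Of 7 genes of the TGF-beta pathway that reaches E2f4 and E2f5 through Smad proteins, 4 lay above 0 and 3 below it, and the median was 0.25, which turned to -0.14 at the probe set of lowest mean. The receptors Tgfbr1 and Tgfbr2 had 0.89 and 2.37, and 1.26 and 2.37, and Smad4 had 2.88 and 1.45. The direction was not shared by all probe sets, which reached 0.00 for Tgfbr1 and Smad4 and -0.25 for Tgfbr2. Of 5 measured genes of the multiciliated cell program, in which E2f4 and E2f5 take part, 3 were higher, 2 were lower and none passed 1. Foxj1, a factor of motile cilia, had 0.40 and 1.33, and Myb had 2.98 and 2.36.

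**Figure D4:**
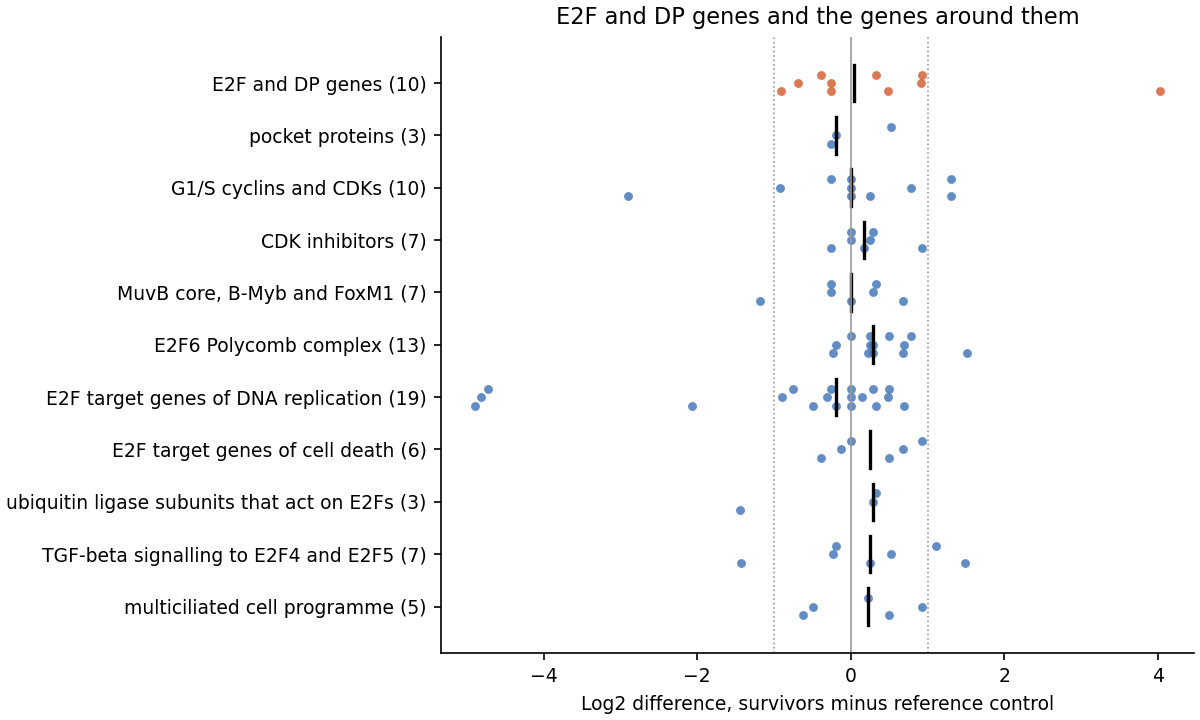
Log2 difference, survivors minus reference control (horizontal axis), of each measured gene at its probe set of highest mean signal, for the 10 E2F and DP genes (orange) and 10 lists of genes around them (blue), with the number measured in brackets. Black bars are medians and dotted lines mark -1 and 1; E2f5 at 4.02 is the point farthest to the right, and Rrm2, Cdt1 and Mcm7 are those farthest to the left.

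Over the 10 lists, counting each gene once, 80 of 87 genes were measured at a probe set with a symbol of their own. Of the 80, 5 were higher by over 1 and 8 were lower by over 1. Their median difference was 0.07, against 0.00 for all genes. None of the 80 was higher by as much as E2f5, and the largest was the 1.51 of Mga. After centering on the hybridization controls the medians of all 10 lists lay between -2.96 and -2.48. The 8 lists with a median other than 0 kept its sign after median centering, quantile normalization and loess. Median centering takes the same small amount from every difference, less than the size of any of the 8, so it could not turn a sign. Other choices did remove signs. With a floor at the 25th percentile, the median of the multiciliated program went from 0.23 to 0.00. At the probe set of lowest mean, that of TGF-beta signaling was -0.14. Those of pocket proteins, the E2f6 complex, replication targets and death targets were 0.00 there.

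**Figure D5:**
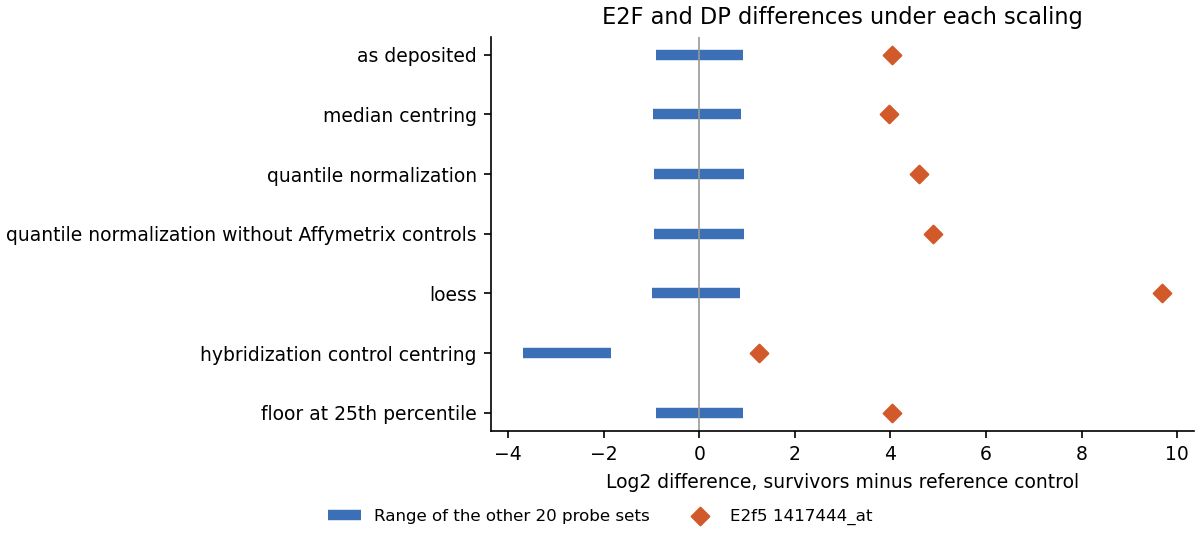
Log2 difference, survivors minus reference control (horizontal axis), of E2f5 1417444_at (orange diamond) and the range of the other 20 E2F and DP probe sets (blue bar) as deposited and under 6 other scalings (rows). E2f5 stays to the right of the range in each, at 1.25 after centering on the hybridization controls and 9.68 after loess.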

How the data were processed

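The values deposited by the authors were log2 signals of probe sets, with 1 array per condition, and the submitters' processing notes name RMA. The software and settings behind RMA were not stated, and the arrays did not have equal distributions as deposited. The paper's methods name a program that came with the library, followed by R. Quantile normalization and an ANOVA of the scans are mentioned in the results of the paper. The labels name genomic DNA as the PCR template, whereas the methods name RNA copied into cDNA. Samples were grouped by the MNNG label. From the deposited log2 values the reference control was subtracted from the survivors for each of 45037 probe sets (64 Affymetrix controls were set aside). Values within 1e-06 counted as equal. Gene names came from the array annotation. Of 34945 probe sets with 1 symbol, 34741 had it updated by gene ID through GRCm38.p6. No coordinates are given, because the annotation names no build.

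A single array per condition allows no test, and precision is limited by that number. The family, the lists and the named genes were chosen with earlier results of these data known. Named were every family probe set, the 5 probe sets nearest to E2f5, and of each list the genes past 1 or, where fewer than 2 passed, the 2 farthest from 0. All measured cell type markers were named too, and values were given for Mbp and Csf1r after they had been seen. Alternatives were a centering of each array on its median or on its hybridization controls (by their median), quantile normalization, loess (fraction 0.3), a floor at the 25th percentile, leaving out probe sets ending in _x_at or _s_at, other thresholds and other probe sets per gene. The steps were run on simulated data with normal noise and planted shifts. Those data held no loss of bright signals and no repeated steps, so they do not bear on the choice of scaling. Python 3.11.15, numpy 2.4.6, pandas 2.3.3, statsmodels 0.14.6 and matplotlib 3.10.9 were used.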

Additional observations from a re-analysis of the deposited data

How the results depend on the processing

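No paired analysis was possible because each condition had 1 array, and for the same reason no array could be left out. A change of over 0.45, the scaled median absolute deviation of all differences, was taken as a move. The difference of E2f5 1417444_at kept its sign throughout, with 4.60 after quantile normalization, 4.88 when the Affymetrix controls were left out of that step (an alternative chosen after seeing the data), 9.68 after loess and 1.25 after centering on the hybridization controls. Loess treats the trend over probe sets of like mean signal as no change, while most probe sets bright in control cells fell. The 9.68 is thus no measure of how firm the difference is. The linear signal of E2f5 1417444_at in the survivors was 918 after quantile normalization and 1120 without the Affymetrix controls, so the number of family probe sets past the study's thresholds was 0 in the former. It was also 0 with a signal threshold of 2000 and after centering on the hybridization controls. With a threshold of 0.5 in place of 1, 4 family probe sets were higher and 2 were lower. These 6 of 21 stand beside 11757 of all 45037 probe sets past 0.5 in either direction, a like share. Centering on the hybridization controls, which shifts the whole array by the same amount, put 20 family probe sets lower by over 1. The median over the 21 was -2.77. The list medians then were -2.96 for pocket proteins, -2.77 for cyclins and kinases and for the MuvB group, -2.59 for kinase inhibitors, -2.48 for the E2f6 complex and for the ubiquitin ligase subunits, -2.95 for replication targets, -2.52 for death targets, -2.51 for TGF-beta signaling and -2.54 for the multiciliated program. With each gene at its probe set of lowest mean, the TGF-beta median turned from 0.25 to -0.14 and the MuvB median went from 0.00 to -0.14. Those of pocket proteins, the E2f6 complex, replication targets and death targets then were 0.00, so these list medians depend on the probe set. With the median over the probe sets of a gene, those of kinase inhibitors, replication targets and death targets were 0.00, and that of TGF-beta signaling was 0.16. The MuvB median was 0.24 after quantile normalization, 0.11 after loess and -0.05 after median centering. All list medians as deposited are below 0.45 in size, so that yardstick does not bear on their sign. The differences of the other 20 family probe sets ran from -0.99 to 0.93 over the scalings other than that on the hybridization controls.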
